A study of Mus musculus with 15 samples.

Results

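The acute phase genes *Saa1*, *Saa2*, *Saa3*, *Lcn2*, *Lrg1* and *Hp* were followed across 15 total RNA libraries of mouse colon, chosen by their symbols from a table of 32544 genes. All 6 were found, and all 6 were among the 17477 genes that passed the expression filter and were tested. Colon was compared between 3 *Tert* genotypes, untreated or after dextran sulfate sodium (DSS), which damages the lining of the colon when mice drink it. *Tert* encodes the reverse transcriptase of telomerase, and the genotypes ask separately about loss of its enzymatic activity and loss of the gene. WT mice were TERT+/+, VAA mice carried an engineered TERT without enzymatic activity, and KO mice were TERT-/-. Mice were 8 to 12 weeks old at treatment. DSS groups drank 3% DSS over 4 days and plain water over the next 4 days, and their colons were taken on day 8. Each genotype gave 2 untreated and 3 DSS libraries. Strain, colon segment, the generation of the KO mice and whether each library was a separate animal are not stated in these sources, so *P* values measure the spread between these libraries.

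Acute phase genes encode secreted proteins whose blood levels change when tissue is injured or infected. The liver makes most of them, under interleukin 6, interleukin 1 and tumour necrosis factor, acting through the transcription factors STAT3, C/EBP beta and NF-kB. Some are also made inside inflamed gut, by epithelium, macrophages, neutrophils and fat. *Saa1* and *Saa2* encode serum amyloid A proteins that travel on high-density lipoprotein, and *Saa3* encodes a serum amyloid A made mainly outside the liver in mice. *Lcn2* encodes lipocalin 2, which withholds iron from bacteria by binding their siderophores and is used as a stool marker of colitis in mice. *Lrg1* encodes a leucine-rich glycoprotein that modifies transforming growth factor beta signalling in endothelium, and *Hp* encodes haptoglobin, which captures haemoglobin released from red cells.

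In GENCODE on mm10, *Saa3* (chr7:46711998-46715700, minus strand), *Saa1* (chr7:46740497-46742980, minus strand) and *Saa2* (chr7:46751790-46754313, plus strand) lie close together, with *Saa4* (chr7:46727998-46732603, minus strand) between *Saa3* and *Saa1*. *Lcn2* lies at chr2:32384633-32388252, *Lrg1* at chr17:56119678-56122001 and *Hp* at chr8:109575128-109579172, all on the minus strand. A RefSeq promoter (GRCm38.p6, the same build) was matched for 5 of the 6 genes, and none is shown for *Hp*. The 250 bases before the RefSeq start are printed 5′ to 3′ on each gene's own strand. *Saa1* and *Saa2* are shown because their promoters are near copies although their counts were far apart, and the others because their levels changed with DSS. Capitals mark matches on either strand to the C/EBP letters TTGCNNAA or the NF-kB letters GGGNNNNNCC, and no such matches overlap. The windows are chr7:46742981-46743230 for *Saa1*, chr7:46751583-46751832 for *Saa2*, chr7:46715677-46715926 for *Saa3*, chr2:32387740-32387989 for *Lcn2* and chr17:56121947-56122196 for *Lrg1*.
Saa1: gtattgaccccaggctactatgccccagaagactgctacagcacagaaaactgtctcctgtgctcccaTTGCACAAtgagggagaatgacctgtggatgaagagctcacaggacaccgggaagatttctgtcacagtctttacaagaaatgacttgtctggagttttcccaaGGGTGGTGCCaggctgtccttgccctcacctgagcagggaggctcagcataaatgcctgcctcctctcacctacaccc
Saa2: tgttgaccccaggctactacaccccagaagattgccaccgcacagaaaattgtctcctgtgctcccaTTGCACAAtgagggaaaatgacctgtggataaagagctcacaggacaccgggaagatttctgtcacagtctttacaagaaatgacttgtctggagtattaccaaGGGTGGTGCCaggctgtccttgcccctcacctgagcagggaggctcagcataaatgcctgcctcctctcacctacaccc
Saa3: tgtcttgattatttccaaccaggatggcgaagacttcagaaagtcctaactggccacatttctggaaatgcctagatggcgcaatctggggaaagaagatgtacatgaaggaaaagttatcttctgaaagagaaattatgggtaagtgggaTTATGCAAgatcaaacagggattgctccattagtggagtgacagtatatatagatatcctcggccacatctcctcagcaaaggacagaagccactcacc
Lcn2: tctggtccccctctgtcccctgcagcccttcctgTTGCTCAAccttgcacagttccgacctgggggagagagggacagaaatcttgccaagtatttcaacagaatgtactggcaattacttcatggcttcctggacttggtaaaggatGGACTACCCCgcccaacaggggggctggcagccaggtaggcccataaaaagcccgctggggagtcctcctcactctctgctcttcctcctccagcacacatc
Lrg1: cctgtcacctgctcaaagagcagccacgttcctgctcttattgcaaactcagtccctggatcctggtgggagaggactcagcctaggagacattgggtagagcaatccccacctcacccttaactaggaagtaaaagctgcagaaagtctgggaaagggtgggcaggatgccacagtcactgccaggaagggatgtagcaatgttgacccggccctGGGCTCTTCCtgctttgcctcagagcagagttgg
The *Saa1* and *Saa2* promoters were identical at 238 of 251 aligned positions (94.8%), whereas every other pair among the 5 was identical at 46.2% to 53.2%. *Saa1* and *Saa2* share a C/EBP match and an NF-kB match in the same order, at 182 to 175 and 78 to 69 bases before the start in *Saa1*. The *Saa3* window held a C/EBP match at 99 to 92 bases before the start and the *Lcn2* window held matches to both motifs, at 216 to 209 and 102 to 93. *Lrg1* held an NF-kB match 34 to 25 bases before its start. Among 32851 promoters of the same length, 9.56% held the C/EBP letters and 45.8% the NF-kB letters, so the NF-kB match is a common one. The STAT letters TTCNNNGAA, held by 7.02% of promoters, were not in these 5 windows. These matches describe letters and were not tested as binding sites.

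Library totals ran from 10.6 to 17.5 M estimated counts. *Tert* held 23 to 40 counts in each WT library, 7 to 29 in VAA and 0 or 1 in KO. The Y-linked gene *Ddx3y* held 914 counts in untreated WT replicate 2 and 868 in untreated KO replicate 2, against 5 to 20 elsewhere, so both male libraries were untreated. Markers of colonic epithelium (10 genes, among them *Epcam* and *Krt8*) summed to between 9520 and 15800 CPM in every library. CPM here are counts per M of library total, with totals scaled by trimmed means (TMM). Fold changes are log2 with a standard error from edgeR's quasi-likelihood fit over all 15 libraries. Calls were made at an adjusted *P* under 0.05 (Benjamini-Hochberg, over the 17477 genes). Where groups are said not to overlap, this describes the gene named, and the share of all genes with groups apart was not counted. The DSS comparison of each genotype used its own untreated libraries, whereas KO against WT and KO against VAA under DSS share the KO libraries, and VAA against WT shares the WT ones.

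After DSS, *Saa3*, *Lcn2*, *Lrg1* and *Hp* rose steeply in WT and VAA colon, and *Saa1* and *Saa2* passed the test in neither. In KO colon *Lrg1* and *Hp* rose, with smaller estimates than in the other genotypes, and the changes of *Saa3* and *Lcn2* did not pass the test. In WT, 4 of the 6 genes were called higher where 14.1% of all genes were, in VAA 4 of 6 where 10.9% were, and in KO 2 of 6 where 5.59% were. Averaged over genotypes, 4 of 6 were called higher where 22.5% of genes were. The median log2 change of the 6 was 5.58 in WT, 5.80 in VAA and 1.13 in KO, beside -0.01, 0.06 and 0.00 over all genes.

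**Figure D1:**
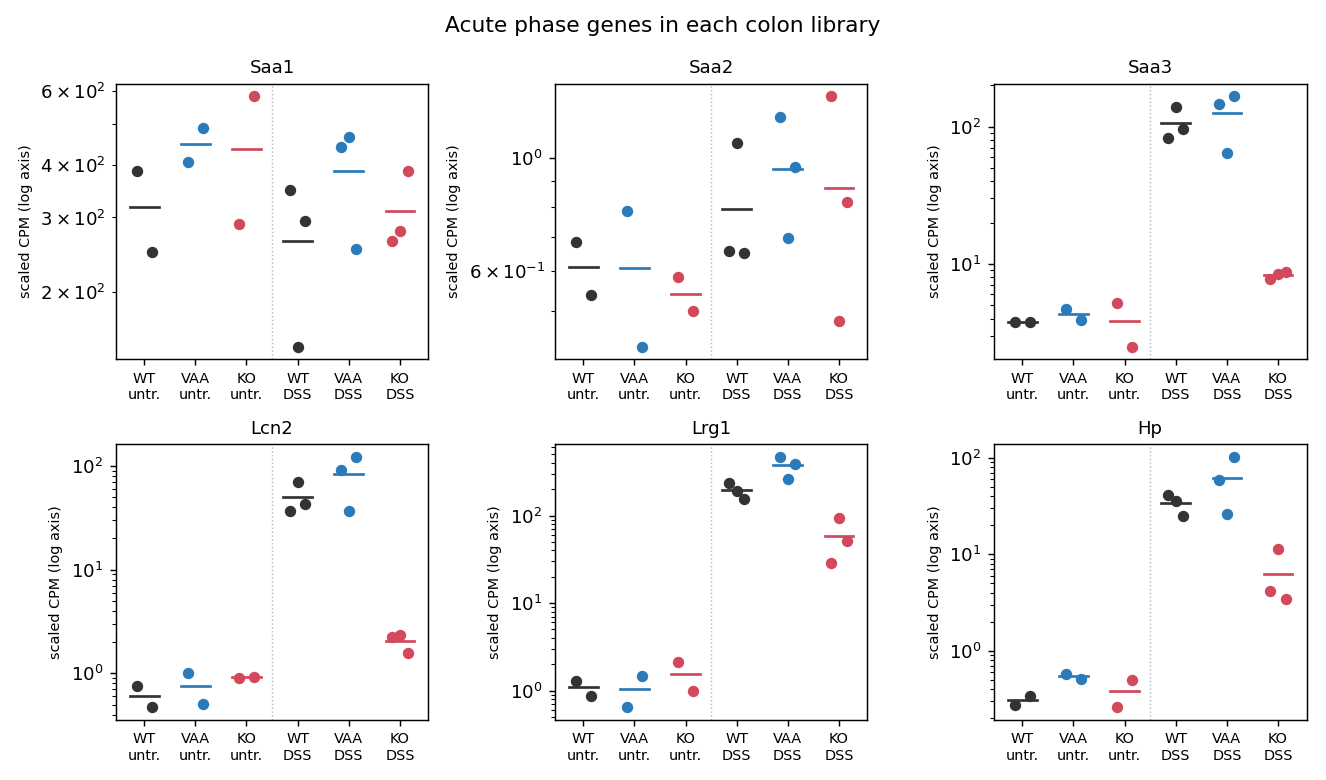
Scaled CPM of the 6 acute phase genes in each of the 15 libraries (log axes, a different range in each panel); points are libraries, bars are group means, and untr. is untreated. Saa3, Lcn2, Lrg1 and Hp in KO DSS sit below every WT and VAA DSS library, whereas the Saa1 groups overlap.

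*Saa1* was the abundant serum amyloid A gene of untreated colon. Its level was 388 and 249 CPM in untreated WT, 406 and 489 in VAA, and 289 and 583 in KO. Under DSS it was 348, 148 and 294 CPM in WT, 441, 467 and 252 in VAA, and 264, 279 and 388 in KO. The untreated and DSS groups overlapped in each genotype, and WT DSS replicate 2 was the lowest of the 15. The log2 change with DSS was -0.28 ± 0.37 in WT, -0.21 ± 0.37 in VAA and -0.49 ± 0.37 in KO (edgeR's quasi-likelihood test, adjusted *P* = 0.62, 0.75 and 0.44). The 95% interval averaged over genotypes ran from -0.79 to 0.14. *Saa2* was near the detection limit throughout, with 5 to 20 counts per library and 0.426 to 1.32 CPM. Its untreated and DSS groups overlapped in every genotype, and its log2 change was 0.36 ± 0.51 in WT, 0.62 ± 0.51 in VAA and 0.67 ± 0.52 in KO (edgeR, adjusted *P* = 0.63, 0.43 and 0.44).

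Counts of this pair are uncertain, because their transcripts have part of their sequence in common. Of the 2500 31-base words in *Saa1* transcripts 46% also occur in *Saa2*, and RefSeq lists each symbol as a synonym of the other. *Saa1* counts were 138 to 1170 times *Saa2* counts in the same library. Summing both genes left the WT change at -0.27 (edgeR, adjusted *P* = 0.62). *Saa3* shares 1.08% of its words with *Saa1* and 0.424% with *Saa2*.

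*Saa3* was low in untreated colon, at 3.76 and 3.77 CPM in WT, 4.72 and 3.92 in VAA, and 5.17 and 2.5 in KO. DSS libraries held 82.3, 140 and 96.5 CPM in WT, 146, 64.6 and 167 in VAA, and 7.76, 8.46 and 8.70 in KO. Every DSS library was above the untreated ones of its genotype, and the highest KO DSS library, at 8.70 CPM, lay below the lowest of the other genotypes, at 64.6. The log2 rise was 4.82 ± 0.44 in WT and 4.86 ± 0.44 in VAA (edgeR, adjusted *P* = 2e-05 and 1.4e-05), a 28.2-fold and a 29.0-fold rise. In KO the log2 change was 1.10 ± 0.41 and was not called (edgeR, adjusted *P* = 0.10, 95% interval 0.22 to 1.99). That value was called without VAA DSS replicate 2 (adjusted *P* = 0.025), with only the KO groups in the fit (0.04) and by DESeq2 (0.034).

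The share of serum amyloid A reads that belonged to *Saa3* shifted with it. *Saa3* made up 0.426% to 1.76% of summed *Saa1*, *Saa2* and *Saa3* counts in the 6 untreated libraries. The share was 19.1%, 48.4% and 24.7% in WT DSS, 24.8%, 12.1% and 39.8% in VAA DSS, and 2.84%, 2.93% and 2.19% in KO DSS. KO DSS libraries thus lay above untreated colon and below all 6 WT and VAA DSS libraries.

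*Lcn2*, the siderophore-binding gene, held 6 to 14 counts in each untreated library. Its untreated level was 0.752 and 0.471 CPM in WT, 1.00 and 0.511 in VAA, and 0.906 and 0.928 in KO. DSS libraries held 37.1, 70.6 and 42.7 CPM in WT, 91.1, 37.1 and 122 in VAA, and 2.25, 2.32 and 1.56 in KO. The WT and VAA groups overlapped each other, VAA replicate 2 matched the lowest WT library, and the highest KO library stood at 2.32 CPM. The log2 rise was 6.34 ± 0.60 in WT and 6.74 ± 0.60 in VAA (edgeR, adjusted *P* = 2.3e-05 and 1.2e-05). In KO it was 1.15 ± 0.61, which was not called (edgeR, adjusted *P* = 0.25, 95% interval -0.16 to 2.46), although the 3 DSS libraries were all above the 2 untreated ones.

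*Lrg1* had the steepest rise of the 6 in each genotype by point estimate. It stood at 1.30 and 0.875 CPM in untreated WT, 0.644 and 1.45 in VAA, and 2.13 and 0.999 in KO. DSS libraries reached 238, 193 and 154 CPM in WT, 468, 264 and 389 in VAA, and 28.5, 94.4 and 50.6 in KO. The 3 DSS groups did not overlap, with VAA highest and KO lowest. The log2 rise was 7.48 ± 0.62 in WT, 8.51 ± 0.65 in VAA and 5.18 ± 0.57 in KO (edgeR, adjusted *P* = 9.9e-06, 4.2e-06 and 0.00023). By *P* value the WT rise ranked 28 among the 17477 genes, ahead of *Saa3* at 45, *Lcn2* at 53 and *Hp* at 192.

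*Hp*, the haemoglobin-binding member, held 4 to 8 counts in each untreated library and passed the expression filter through the DSS libraries. Its untreated level was 0.273 and 0.337 CPM in WT, 0.572 and 0.511 in VAA, and 0.259 and 0.5 in KO. Under DSS it was 41.0, 35.8 and 24.9 CPM in WT, 58.8, 25.9 and 102 in VAA, and 4.19, 11.3 and 3.42 in KO. KO replicate 2 was the highest of its group for both *Hp* and *Lrg1*, and every KO library was below every WT and VAA library. The log2 rise was 6.75 ± 0.82 in WT, 6.81 ± 0.78 in VAA and 4.05 ± 0.81 in KO (edgeR, adjusted *P* = 0.00012, 6.2e-05 and 0.0082). The KO call was lost without untreated KO replicate 1 (3.64, adjusted *P* = 0.11) or replicate 2 (4.57, adjusted *P* = 0.053), the latter being a male library.

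**Figure D2:**
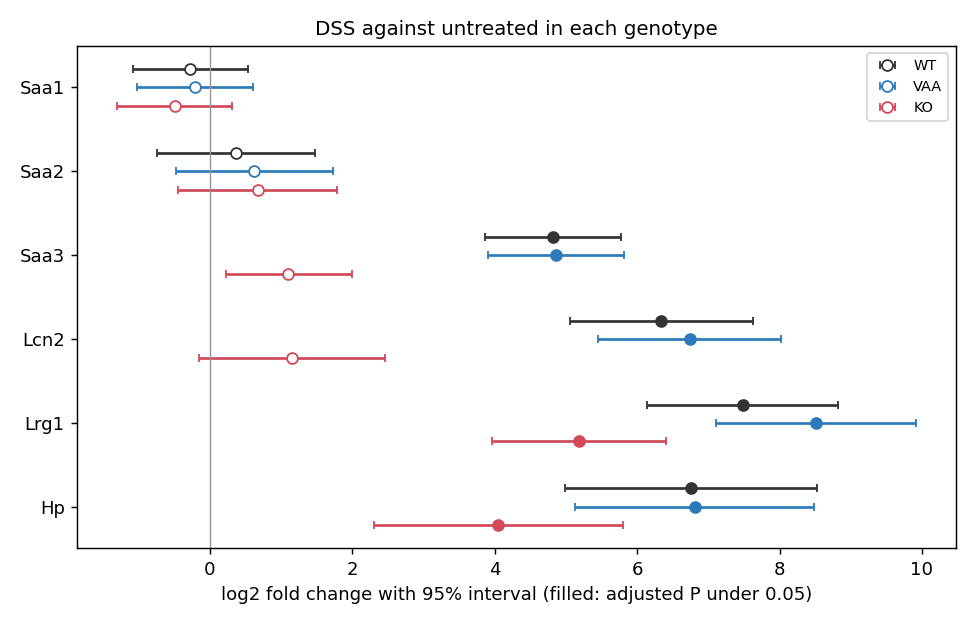
Log2 change of each gene from untreated to DSS in WT, VAA and KO colon, with 95% intervals from the edgeR fit; filled points had an adjusted P under 0.05. The WT and VAA points for Saa3, Lcn2, Lrg1 and Hp lie between 4.82 and 8.51, the KO points between 1.10 and 5.18, and the Saa1 points just below 0.

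Levels were set side by side per kb of annotated exon, since the genes differ in length. That length joins the exons of all annotated transcripts. It is 2478 bases for *Saa1*, nearly the whole gene, 2623 for *Lcn2*, 1606 for *Hp* and 1408 for *Lrg1*. The order depends on this length. In mean CPM, WT DSS held more *Saa1* (263.4) than *Lrg1* (195) and more *Lcn2* (50.15) than *Hp* (33.89). KO DSS held more *Saa3* (8.304) than *Hp* (6.288). In untreated WT colon *Saa1* led with a mean of 129 CPM per kb, followed by *Saa3* at 1.44 and *Lrg1* at 0.772. *Saa2* at 0.243, *Lcn2* at 0.233 and *Hp* at 0.190 CPM per kb came last, and the *Lcn2* range overlapped those of the other two. In WT DSS the order was *Lrg1* at 138, *Saa1* at 106, *Saa3* at 40.8, *Hp* at 21.1, *Lcn2* at 19.1 and *Saa2* at 0.315 CPM per kb. The ranges of *Lrg1* and *Saa1* overlapped, as did those of *Hp* and *Lcn2*. VAA DSS gave *Lrg1* 265, *Saa1* 156, *Saa3* 48.3, *Hp* 38.7, *Lcn2* 31.8 and *Saa2* 0.378 CPM per kb, with overlapping ranges for *Saa3*, *Hp* and *Lcn2*, and the lowest *Lrg1* and highest *Saa1* values were both 188. In KO DSS the order was *Saa1* at 125, *Lrg1* at 41.1, *Hp* at 3.92, *Saa3* at 3.19, *Lcn2* at 0.779 and *Saa2* at 0.346 CPM per kb. There *Saa1* stood above every *Lrg1* value, and the *Hp* and *Saa3* ranges overlapped.

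Under DSS, KO colon held less *Saa3*, *Lcn2*, *Lrg1* and *Hp* than WT or VAA colon. Mean KO levels were 7.81% of WT for *Saa3*, 4.07% for *Lcn2*, 29.7% for *Lrg1* and 18.6% for *Hp*. Against VAA they were 6.59%, 2.45%, 15.5% and 10.1%. These 4 of the 6 genes were called lower than WT where 2.46% of all genes were, and 4 of 6 lower than VAA where 9.41% were. The log2 difference from WT was -3.68 ± 0.34 for *Saa3* and -4.61 ± 0.43 for *Lcn2* (edgeR, Benjamini-Hochberg adjusted *P* = 0.00024 for each), which ranked 4 and 5 by *P* value among all genes. For *Lrg1* it was -1.75 ± 0.36 and for *Hp* -2.42 ± 0.48 (edgeR, adjusted *P* = 0.017 and 0.014). Against VAA the log2 differences were -3.92 ± 0.35 for *Saa3*, -5.34 ± 0.44 for *Lcn2*, -2.69 ± 0.37 for *Lrg1* and -3.29 ± 0.49 for *Hp* (edgeR, adjusted *P* = 0.00012, 6.2e-05, 0.0011 and 0.0015). *Saa1* and *Saa2* had overlapping groups and were called in neither comparison, with log2 differences from WT of 0.24 ± 0.34 and 0.13 ± 0.44 (edgeR, adjusted *P* = 0.74 and 0.90). The median log2 difference of the 6 was -2.08 against WT and -2.99 against VAA, beside -0.01 over all genes in each.

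Single libraries decided some of these calls. Without WT DSS replicate 1, WT DSS replicate 2, KO DSS replicate 1 or KO DSS replicate 3 the KO against WT difference was -1.58, -1.76, -1.42 or -1.66 for *Lrg1* (edgeR, adjusted *P* = 0.067, 0.07, 0.059 and 0.071). The same 4 omissions gave -2.26, -2.38, -2.20 and -2.12 for *Hp* (edgeR, adjusted *P* = 0.052, 0.065, 0.073 and 0.059). The *Saa3* and *Lcn2* calls against WT, and all 4 calls against VAA, held in each of the alternatives run.

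Whether the DSS response itself was smaller in KO was tested as an interaction, and edgeR called 0 of the 6 genes and 0 of all 17477 (0% of genes, 1736 of which had an unadjusted *P* under 0.05). The interaction estimate was -3.71 ± 0.57 for *Saa3* and -5.19 ± 0.91 for *Lcn2* on the log2 scale (edgeR, adjusted *P* = 0.13 and 0.20), and these ranked 2 and 4 of all genes by *P* value. For *Lrg1* it was -2.29 ± 0.84 and for *Hp* -2.71 ± 1.40 (edgeR, adjusted *P* = 0.39 and 0.54). *Saa3* and *Lcn2* were called by DESeq2 (adjusted *P* = 5e-08 for each, among 136 genes) and by limma on the deposited log2 CPM (0.022 and 0.0087, among 9 genes). With edgeR they were also called without VAA DSS replicate 2 (0.0092 and 0.016), without VAA DSS replicate 3 (0.029 and 0.045), with no expression filter (0.034 and 0.049) and with only the WT and KO groups in the fit (0.015 for each).

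Relative to *Lcn2*, counts of *Lrg1* and *Hp* were higher in each KO DSS library than in any other DSS library. The ratio of *Lrg1* to *Lcn2* counts was 12.7, 40.7 and 32.4 in KO DSS, against 6.42, 2.73 and 3.61 in WT DSS and 5.14, 7.12 and 3.19 in VAA DSS. *Hp* to *Lcn2* was 1.86, 4.85 and 2.19 in KO DSS, against 0.507 to 1.10 in WT and 0.645 to 0.835 in VAA. All 3 KO libraries lay above the other 6 for both ratios. *Lrg1* to *Saa3* was 3.67 to 11.2 in KO, apart from WT (1.37 to 2.9) and overlapping VAA (2.32 to 4.09), and the *Hp* to *Saa3* ranges overlapped. In two-sided exact permutation tests of the log2 ratios, the 5 non-overlapping comparisons gave *P* = 0.1 (0.16 after Benjamini-Hochberg adjustment over 8 tests), the smallest that 3 against 3 libraries allow, so the design could not reach 0.05. The other 3 of these exact tests gave *P* = 0.2 or 0.7.

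**Figure D3:**
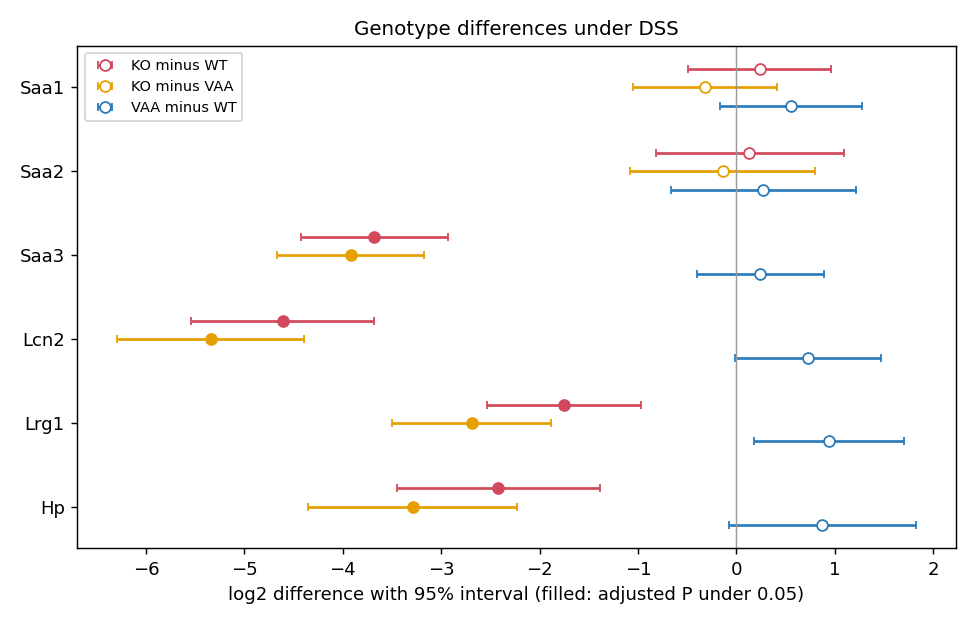
Log2 differences between genotypes under DSS with 95% intervals from the edgeR fit; filled points had an adjusted P under 0.05. KO minus WT and KO minus VAA lie below 0 for Saa3, Lcn2, Lrg1 and Hp, and no VAA minus WT point is filled.

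Under DSS no member passed the test between VAA and WT colon (0 of 6 called by edgeR, where 0.00572% of genes were). Of the 6, 1 (*Lrg1*) had an unadjusted *P* under 0.05 (edgeR, 0.019), as did 2855 of the 17477 genes. DESeq2 and limma also called 0 of the 6. The *Lrg1* estimate was higher in VAA than in WT by 0.94 ± 0.35 on the log2 scale (edgeR, adjusted *P* = 0.28, 95% interval 0.18 to 1.70). The difference was 0.73 ± 0.34 for *Lcn2*, 0.87 ± 0.44 for *Hp* and 0.24 ± 0.30 for *Saa3* (edgeR, adjusted *P* = 0.31, 0.33 and 0.68). Their 95% intervals ran from -0.01 to 1.47, from -0.08 to 1.82 and from -0.40 to 0.89. VAA DSS replicate 2 was the lowest VAA library for *Saa3*, *Lcn2*, *Lrg1* and *Hp*, and without it *Lcn2* was called higher (1.09, edgeR, adjusted *P* = 0.042). The interaction for VAA gave 0 called members and 0 called genes (0%) in edgeR, with 1259 genes at an unadjusted *P* under 0.05 and 0 called by DESeq2 and by limma.

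Untreated, no member differed between genotypes by the test, with 0 of 6 called in edgeR for KO against WT and for VAA against WT, an adjusted P of 1 for each, and 0% of all genes called. No member had an unadjusted *P* under 0.05, and 352 and 233 of all genes did. DESeq2 called 9 and 2 of all genes and 0 members. With 2 libraries a group the 95% intervals were wide, from -1.12 to 2.28 for *Lcn2* and from -2.52 to 3.09 for *Hp* in KO against WT.

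Several other acute phase genes also rose with DSS. Of 25 such genes 17 were tested, and 8 rose in WT, 12 in VAA and 3 in KO, with none falling. Of all genes 14.1%, 10.9% and 5.59% were called higher. The median log2 change of the 17 was 1.67, 2.62 and 0.65. *Il1rn* was called in KO alone, at 0.79 ± 0.20, against 0.47 ± 0.20 in WT and 0.57 ± 0.20 in VAA (edgeR, adjusted *P* = 0.026, 0.096 and 0.061). *Serpina3n*, which encodes a serine protease inhibitor, rose by 4.82 ± 0.69 in WT and 5.77 ± 0.71 in VAA (edgeR, adjusted *P* = 0.00035 and 0.00012), and its KO change of 1.90 ± 0.62 was not called (0.066). It was lower in KO than WT under DSS by a log2 difference of -2.57 ± 0.50 (edgeR, adjusted *P* = 0.014), at a mean of 22.4 against 133 CPM. *Cp*, the copper-carrying ferroxidase ceruloplasmin, rose by 2.06 ± 0.27 in WT (edgeR, adjusted *P* = 0.00019) and was lower in KO DSS by -1.47 ± 0.23 (0.0046). Complement *C3* rose in all 3 genotypes, by 2.80 ± 0.47, 3.28 ± 0.48 and 1.47 ± 0.44 (edgeR, adjusted *P* = 0.00098, 0.00038 and 0.048).

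*Steap4*, a metalloreductase, was the gene of this list with the smallest *P* value over the 3 genotypes. It rose by 3.23 ± 0.44 in WT, 3.45 ± 0.44 in VAA and 2.91 ± 0.43 in KO (edgeR, adjusted *P* = 0.00024, 0.00014 and 0.0015), and its KO against WT difference under DSS was -0.35 ± 0.33 (0.58). *Serpina3m* group totals went from 0 to 282 counts in WT and from 1 to 25 in KO. The gene was lower in KO than WT under DSS by -3.39 ± 0.75 (edgeR, adjusted *P* = 0.024). Under DSS, 4 of the 17 were lower in KO than in WT and 8 of 17 lower than in VAA, with median differences of -0.41 and -1.56, and none was higher. The other 8 genes of the list were not tested, among them the fibrinogen chains *Fga*, *Fgb* and *Fgg*, with 7, 5 and 3 counts over all 15 libraries. Setting genes with 3 or fewer counts in their lower group to that floor gave medians of 1.75, 2.62 and 0.65.

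**Figure D4:**
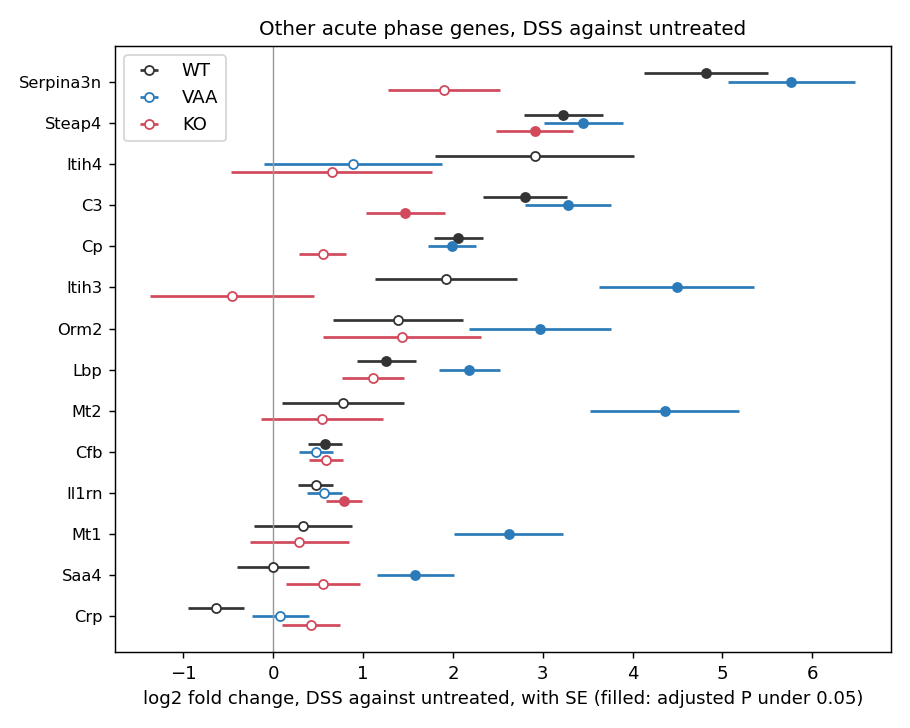
Log2 change from untreated to DSS of 14 other acute phase genes in WT, VAA and KO colon, with standard errors from the edgeR fit; filled points had an adjusted P under 0.05. Genes with 3 or fewer counts in a group are left out. Serpina3n and Cp have filled WT and VAA points and open KO points, whereas Steap4 and C3 are filled in each genotype.

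Among 19 tested genes of inducing cytokines and their receptors, 9 rose and 3 fell with DSS in WT, 11 rose and 2 fell in VAA, and 2 rose and 2 fell in KO. Median log2 changes were 0.91, 1.24 and 0.29. *Il1b*, the interleukin 1 beta gene, rose by 6.47 ± 0.55 in WT and 4.23 ± 0.56 in KO (edgeR, adjusted *P* = 1.2e-05 and 0.00078) and was lower in KO than WT under DSS by -2.74 ± 0.35 (0.0021). *Osm*, encoding the interleukin 6 family cytokine oncostatin M, rose by 4.76 ± 0.54 in WT and 2.15 ± 0.64 in KO (edgeR, adjusted *P* = 7.3e-05 and 0.043), with a KO against WT difference of -2.90 ± 0.38 (0.0024). *Il6* group totals went from 4 to 133 counts in WT, at means of 0.135 and 3.2 CPM (4.46 ± 1.01, edgeR, adjusted *P* = 0.0056). In KO they went from 4 to 8, at means of 0.133 and 0.199 CPM (0.51 ± 1.31, edgeR, adjusted *P* = 0.84). Of the 19, 6 were lower and 1 higher in KO than WT under DSS, and 11 were lower and 1 higher in KO than VAA. The higher one against WT was *Il17rc*, a receptor chain for interleukin 17, at 0.78 ± 0.13 (edgeR, adjusted *P* = 0.0087). *Il22* was at 0 counts in all 6 untreated libraries, with 22, 23 and 2 counts in WT, VAA and KO DSS, and was not called (edgeR, adjusted *P* = 0.06, 0.087 and 0.56).

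Of 16 signalling and transcription factor genes upstream of acute phase genes, 6 rose and 1 fell in WT, 8 rose and 1 fell in VAA, and 2 rose in KO, with median log2 changes of 0.29, 0.57 and 0.32. *Socs3*, the feedback inhibitor that STAT3 induces, rose by 3.94 ± 0.45, 4.99 ± 0.47 and 2.54 ± 0.44 in WT, VAA and KO (edgeR, adjusted *P* = 7.7e-05, 1.8e-05 and 0.0037). *Cebpb*, encoding C/EBP beta, rose by 1.56 ± 0.29 in WT (edgeR, adjusted *P* = 0.0019), and its KO change was 0.44 ± 0.28 (0.34). These were the 2 genes of the list lower in KO than WT under DSS, by -1.94 ± 0.34 and -0.99 ± 0.24 (edgeR, adjusted *P* = 0.0087 and 0.034). *Stat3* changed by 0.34 ± 0.20 in WT (edgeR, adjusted *P* = 0.22) and 0.16 ± 0.20 in KO (0.65) and rose by 0.71 ± 0.20 in VAA (0.023). *Nfkbia*, the NF-kB inhibitor that NF-kB induces, rose in all 3 genotypes, by 1.06 ± 0.20, 1.41 ± 0.21 and 0.81 ± 0.20 (edgeR, adjusted *P* = 0.0025, 0.00041 and 0.024).

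Receptors and partners of the member proteins were counted as 17 genes, of which 5 rose in WT, 8 in VAA and 4 in KO, with median log2 changes of 0.29, 0.67 and 0.10 and no falls. *Fpr2* encodes a formyl peptide receptor that binds serum amyloid A. Its group totals went from 5 to 422 counts in WT, from 3 to 461 in VAA and from 1 to 53 in KO. *Fpr2* was lower in KO than WT under DSS by -2.94 ± 0.40 (edgeR, adjusted *P* = 0.0026). *Mmp9*, the gelatinase that forms a complex with lipocalin 2, rose by 4.12 ± 0.49 in WT (edgeR, adjusted *P* = 0.00011) with a KO change of 0.51 ± 0.48 (0.53). *Hmox1*, the haem-degrading enzyme downstream of haemoglobin uptake, rose by 3.02 ± 0.33, 3.17 ± 0.34 and 1.14 ± 0.32 (edgeR, adjusted *P* = 6.5e-05, 3.7e-05 and 0.041). *Cd163*, the macrophage receptor for haptoglobin with haemoglobin, was not called with DSS, at -0.28 ± 0.58 in WT and -1.81 ± 0.60 in KO (edgeR, adjusted *P* = 0.75 and 0.071). Under DSS, 4 of the 17 were lower in KO than WT, these being *Fpr1*, *Fpr2*, *Mmp9* and *Hmox1*, and 11 were lower than in VAA.

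Most neutrophil markers moved in the same direction as *Saa3*, *Lcn2*, *Lrg1* and *Hp*. Of 14 markers 12 rose in WT, 14 in VAA and 8 in KO, and 12 were lower in KO than WT under DSS and 13 lower than VAA. Their median log2 change was 6.16, 5.88 and 2.42 (4.88, 5.18 and 2.29 with the 3-count floor), and -3.06 for KO against WT. Their summed level was 83.7 to 122 CPM in the 6 untreated libraries, 422 to 489 in WT DSS, 467 to 830 in VAA DSS and 125 to 162 in KO DSS. The 2 not called in WT, *Ly6g* and *Cxcr2*, changed by 0.64 ± 0.45 and 0.18 ± 0.23 there (edgeR, adjusted *P* = 0.32 and 0.58). In KO they changed by 0.22 ± 0.45 and 0.10 ± 0.23 (edgeR, adjusted *P* = 0.8 and 0.83). At means of 73.8 and 26.3 CPM in untreated WT and 84.9 and 24.4 in KO DSS, they made up most of those sums. *S100a8* encodes a calcium-binding protein abundant in neutrophils. Its group totals went from 3 to 2982 counts in WT and from 6 to 130 in KO. The KO against WT difference of *S100a8* under DSS was -4.45 ± 0.33 (edgeR, adjusted *P* = 2.8e-05). *Mmp8* and *Stfa2l1* were at 0 in all 6 untreated libraries, and no marker was at 0 in a DSS library. In bulk tissue fewer cells of a type and less RNA per cell cannot be told apart, and the part of these markers in the members' levels was not tested.

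Genes linked to neutrophil granules were counted separately, with 5 of 7 tested genes higher in WT DSS, 4 in VAA and 3 in KO, and 2 (*Chil3* and *Ngp*) lower in KO than WT. Their sum was 290 to 444 CPM in WT DSS, 253 to 490 in VAA and 352 to 436 in KO. Against VAA under DSS, 3 were lower in KO and 1, *Cd177*, was higher, a call lost without VAA DSS replicate 3. *Lyz2*, encoding lysozyme, had the largest mean of these genes in WT and VAA DSS, at 173 and 168 CPM against 101 in KO. *Cd177*, a neutrophil surface protein gene, was at 113 and 96.7 CPM in WT and VAA DSS and led in KO at 271 CPM. *Lyz2* and *Cd177* together made up most of the summed level in each DSS group, and were at 70.3 and 34.3 CPM in untreated WT. Neither was called between KO and WT under DSS (edgeR, adjusted *P* = 0.19 and 0.087). *Ctsg* was at 0 in all 15 libraries, and *Elane* and *Prtn3* held 4 and 29 counts in all.

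Of 10 macrophage markers, 3 rose and 1 fell in WT DSS, 5 rose in VAA, 1 rose and 1 fell in KO. Under DSS 1, *Itgam*, was lower in KO than WT, and 3 were lower in KO than VAA. Their sum was 179 to 291 CPM in WT DSS, 264 to 362 in VAA and 145 to 205 in KO. Epithelial markers summed higher in KO DSS, at 13200 to 15800 CPM against 10500 to 11100 in WT and 9560 to 11700 in VAA, and 2 of 10, *Epcam* and *Cdh1*, were called higher in KO than WT, where 3.21% of all genes were. Against VAA 5 of 10 were called higher in KO, where 6.01% of all genes were. Of 8 fibroblast markers 1 fell in WT DSS, 1 rose and 1 fell in VAA, and 2 fell in KO. Under DSS 2 of the 8 were lower in KO than WT, and 7 lower than VAA with a median log2 difference of -1.20. Fibroblast sums were 1110 to 1800 CPM in WT DSS, 1300 to 3340 in VAA and 804 to 1200 in KO. Of 8 endothelial markers none was called with DSS in WT or KO and 2 rose in VAA. None was called between KO and WT under DSS, and 6 were lower in KO than VAA, with a median of -1.29. Endothelial sums were 73.3 to 109 CPM in WT DSS, 59.7 to 77.6 in KO, and 126, 84.6 and 312 in VAA.

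VAA DSS replicate 3 stood apart, with the highest fibroblast, endothelial and hepatocyte marker sums of the 15 libraries (3340, 312 and 158 CPM). Without it, an alternative chosen after the values were seen, 3 fibroblast and 3 endothelial markers were lower in KO than VAA and 3 epithelial markers higher. The neutrophil count stayed at 13 and the macrophage count at 3. The KO against VAA log2 differences without it were -3.66 for *Saa3*, -4.96 for *Lcn2*, -2.65 for *Lrg1* and -2.73 for *Hp* (edgeR, adjusted *P* = 9.4e-05, 4e-05, 0.0013 and 0.0018).

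Of 8 tested adipocyte markers 2 rose with DSS in WT and none was called in VAA or KO, with medians of 2.08, -0.27 and 2.45. Averaged over genotypes 5 of the 8 rose, where 22.5% of all genes did. Adipocyte sums varied within groups, at 445, 110 and 99.3 CPM in WT DSS, 111, 364 and 94.3 in KO DSS, and 97.9 to 148 in VAA DSS. Untreated VAA held 148 and 72.3 CPM, against 71.6 to 76.9 in untreated WT and 72.6 to 74.1 in untreated KO. WT DSS replicate 1 and KO DSS replicate 2 were also the highest of their groups for *Lrg1* and *Hp*. For *Saa3* and *Lcn2*, WT DSS replicate 1 was the lowest of its group, at 82.3 and 37.1 CPM. KO DSS replicate 2 was the highest of its group for *Lcn2* (2.32 CPM) but not for *Saa3* (8.46 CPM). In VAA DSS, replicate 3 was highest for the adipocyte sum, *Saa3*, *Lcn2* and *Hp*, and replicate 1 for *Lrg1*. None of these lists was tested for its part in the members' levels.

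**Figure D5:**
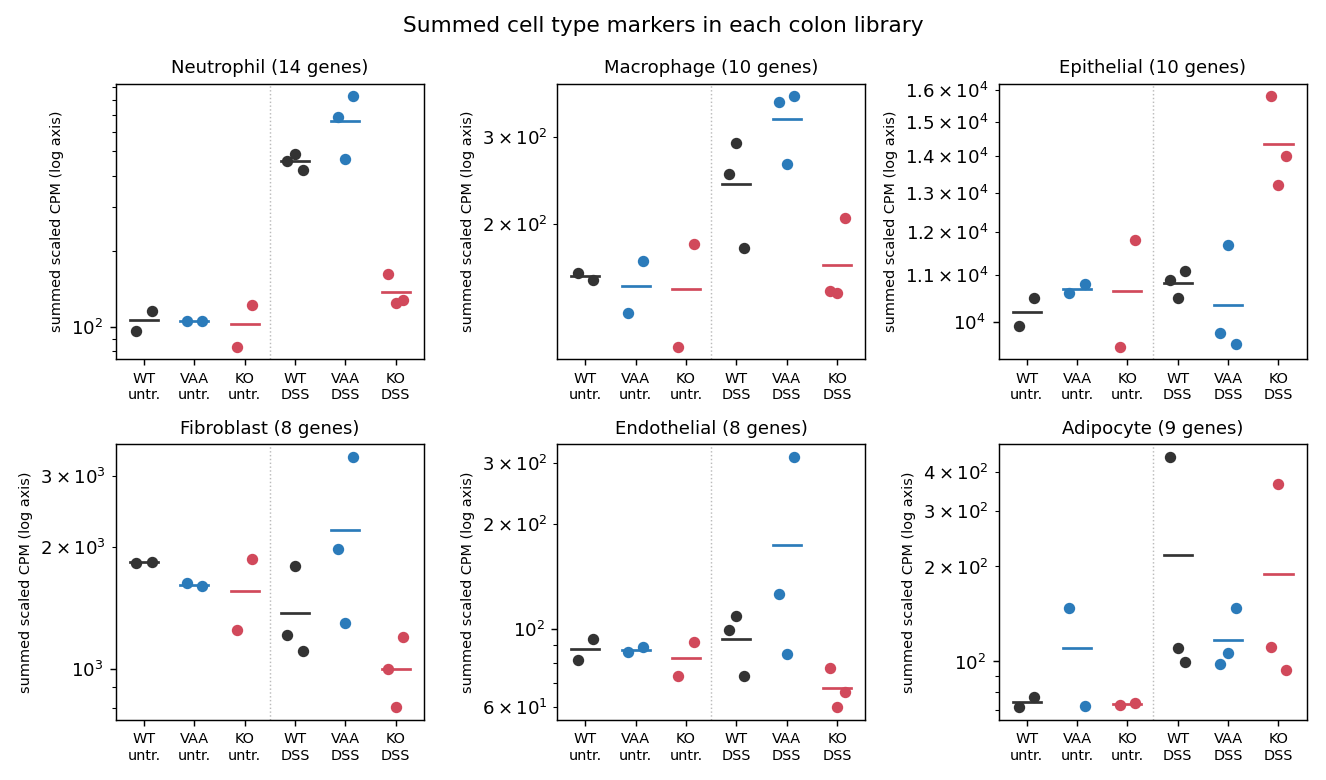
Summed scaled CPM of 6 cell type marker lists in each library (log axes, a different range in each panel); points are libraries and bars are group means. Neutrophil sums in KO DSS (125 to 162 CPM) lie below all WT and VAA DSS libraries (422 to 830), and epithelial sums in KO DSS lie above them.

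Liver is the main source of acute phase proteins, and markers of hepatocytes were near the detection limit in part. Of 9 markers 4 were tested, and *Ahsg*, *Fgb* and *Apoc3* held 5, 5 and 7 counts over the 15 libraries. *Alb* group totals were 13 counts in untreated WT and 10 in WT DSS, and 34 in untreated VAA and 6 in VAA DSS. *Ttr*, at 22.5 CPM in untreated WT, fell by 2.24 ± 0.40 with DSS in WT (edgeR, adjusted *P* = 0.0014) and was called higher in KO than WT under DSS (1.35 ± 0.37, adjusted *P* = 0.049). With DSS 1 of the 4 fell in WT and in KO, and 3 fell and 1 rose in VAA. The hepatocyte sum was 61.7 to 63.2 CPM in WT DSS and 47.4 to 64.4 in KO DSS, with ranges that overlapped, and 68.8 to 158 in VAA DSS, above every WT and KO DSS library. *Tat*, encoding tyrosine aminotransferase, had the largest mean of these markers in DSS colon, at 50.7 CPM in WT, 97.8 in VAA and 30.2 in KO. The VAA DSS sum was therefore mostly *Tat*, with *Ttr* at a mean of 2.5 CPM and *Cps1* at 2 CPM.

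Genes with the most similar profile over the 9 DSS libraries were picked by Pearson's r of log2 CPM among 12735 genes, as a description. Since KO libraries lie apart, the value within the 6 WT and VAA libraries is also given. Those 6 are among the 9 used to pick the genes, so that value is not an independent check. For *Saa3* the nearest genes were *Chil3*, *Hmox1* and *Adam8*, with r of 0.992, 0.988 and 0.982 over 9 libraries and 0.96, 0.90 and 0.81 within the 6. For *Lcn2* they were *S100a8*, *Hmox1* and *S100a9*, at 0.986, 0.982 and 0.981, and 0.79, 0.92 and 0.67 within the 6. *Lrg1* was nearest to *Lmo4*, *Eif4ebp1* and *Cwh43*, at 0.963, 0.962 and 0.958, and 0.87, 0.83 and 0.81 within the 6. *Hp* was nearest to *B4galt6*, *Samd5* and *Jag2*, at 0.985, 0.98 and 0.978, and 0.96, 0.94 and 0.86 within the 6. *Saa1* was nearest to *Atp8a1*, *Ces2f* and *Ces2g*, at 0.866, 0.86 and 0.859 over the 9, and 0.94, 0.91 and 0.94 within the 6. *Saa2*, with 7 to 20 counts in each of these libraries, was nearest to *Terf2ip*, *Gpank1* and *Slc46a3*, at 0.897, 0.864 and 0.828, and 0.91, 0.74 and 0.66 within the 6. Between members within the 6 WT and VAA DSS libraries r was 0.95 for *Saa3* with *Lcn2* and 0.86 for *Lcn2* with *Hp*, and it was 0.44 for *Saa3* with *Lrg1*. The libraries shared by these values make them dependent on each other.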

How the data were processed

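Total RNA of mouse colon was sequenced as 76-base paired reads, per the labels' protocols, in 15 libraries of 6 groups taken from the sample labels. The authors deposited 2 tables, of estimated counts by symbol and of log2 CPM. The submitters' processing notes name kallisto 0.46 and mm10. How transcripts were chosen and summed is not stated in these sources, and the counts were whole numbers already. No other sample columns were used (0 found). Genes were filtered by edgeR's expression filter (17477 of 32544 kept), scaled by TMM and fitted by quasi-likelihood in edgeR 4.0.16 (R 4.3.3), with 1 mean per group over 15 libraries and 9 residual degrees of freedom. Contrasts of these means gave 11 comparisons, each adjusted by Benjamini-Hochberg over the genes tested at a threshold of 0.05, with standard errors taken from the F statistic. Ratios were tested by two-sided exact permutation in SciPy 1.17.1. Library totals were 10.6 to 17.5 M, and intervals reflect the fit, not counting error alone. *Hp* and *Lcn2* held few counts in untreated libraries. *Hp*, at 4 to 8 counts there, passed the filter through the DSS libraries where it was high.

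The members and the 12 gene lists (154 genes, 137 tested) were chosen with earlier results of these data known, and the promoter motifs with the sequences in view. Named beside the members were, per list, up to 4 called genes of smallest P for DSS averaged over genotypes and up to 3 for KO against WT under DSS, with further genes chosen after their values were seen. Alternatives were DESeq2 size factors, no filter, the DESeq2 1.42.0 test, limma 3.58.1 on the deposited log2 CPM, only the compared groups, a block for replicate number, a covariate for sex, summed *Saa1* and *Saa2*, rows with identical values left out, and each library left out. Leaving out both male libraries was added after seeing the data. The fit was tested on simulated data with known changes. Equal replicate numbers were not treated as pairs.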

Additional observations from a re-analysis of the deposited data

How the results depend on the processing

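The calls of *Saa3*, *Lcn2*, *Lrg1* and *Hp* for DSS in WT and in VAA and for KO against VAA, of *Saa3* and *Lcn2* for KO against WT under DSS, and of *Lrg1* for DSS in KO held under each alternative run. Over all alternatives, 1504 single-gene values kept their direction and side of the threshold, 11 lost a call, 16 gained one and 54 changed sign. The causes were not tested. Depth limits *Saa2*, *Lcn2* and *Hp* in untreated colon, with 4 to 14 counts a library.

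Counts of called genes moved most in small contrasts. KO against WT under DSS gave 1751 (DESeq2), 2766 (only the groups compared) and 531 (both males left out). VAA against WT under DSS gave 2 (no filter), 36 (DESeq2) and 0 (only the groups compared). DSS in KO gave 2986 (only the groups compared), 1187 (sex) and 538 with 1 member (both males left out, where *Hp* had 4.57 and adjusted *P* = 0.074). DSS in VAA gave 1089 and KO against VAA 545 with only the groups compared, and DSS in WT 1999 without both males. Untreated, KO against WT gave 9 (DESeq2) and 1 (limma), and VAA against WT 2 (DESeq2). The KO interaction gave 5 (no filter), 136 (DESeq2), 9 (limma) and 31 (only the groups compared), with 2 members in each.

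Sign changes, none of them called, were -0.03 for *Saa2* in KO against WT under DSS, -0.07 for *Saa3* in untreated KO against WT and -0.07 for *Saa2* in untreated VAA against WT (limma). With sex as a covariate they were -0.02 for *Saa3* in untreated KO, -0.12 for *Saa2* and -0.06 for *Saa3* in untreated VAA, and -0.01 for *Saa1* and -0.29 for *Hp* in the VAA interaction. Without both males they were 0.11 for *Saa1* with DSS in KO, -0.43 for *Saa1* and -0.08 for *Hp* in untreated KO, -0.15 for *Saa2* in untreated VAA, 0.67 for *Saa1* in the KO interaction and -0.10 for *Hp* in the VAA interaction.

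Over 33 pairs of libraries with equal replicate number the correlation of residuals ran from -0.16 to 0.31, with 8 over 0.1. Pairs of unequal number were not set beside these, and residuals in groups of 2 libraries mirror each other. These values therefore do not decide whether the libraries were paired. With the replicate block the called genes were 1074 for KO against WT and 0 for VAA against WT under DSS, every count of called members stayed as reported, and the sign turned for *Saa2* in untreated VAA against WT (-0.02) and for *Saa3* in the VAA interaction (-0.02).

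Leaving out 1 library at a time, called genes ranged from 1958 to 6505 for DSS in WT, 1789 to 4902 in VAA, 403 to 3750 in KO, 121 to 2704 for KO against WT, 0 to 848 for VAA against WT and 1380 to 3796 for KO against VAA under DSS. The ranges were 0 to 1 for both untreated comparisons and 0 to 18 for the KO interaction. Called members ranged from 1 to 3 for DSS in KO, 2 to 4 for KO against WT, 0 to 1 for VAA against WT and 0 to 2 for the KO interaction. Uncalled values that crossed 0 were, for *Saa1*, -0.56 to 0.07 (DSS in WT), -0.37 to 0.02 (DSS in VAA), -0.91 to 0.11 (DSS in KO), -0.05 to 0.49 (KO against WT under DSS), -0.14 to 0.87 (untreated KO), -0.63 to 0.38 (KO interaction) and -0.30 to 0.35 (VAA interaction). For *Saa2* they were -0.28 to 0.43 (KO against WT) and -0.55 to 0.17 (KO against VAA) under DSS, -0.33 to 0.01 (untreated KO), -0.51 to 0.36 (untreated VAA), -0.11 to 0.60 (KO interaction) and -0.10 to 0.78 (VAA interaction). For *Saa3* they were -0.02 to 0.56 (VAA against WT under DSS), -0.59 to 0.46 (untreated KO) and -0.23 to 0.36 (VAA interaction). The others were -0.12 to 0.97 and -0.75 to 0.41 for *Lrg1* in untreated KO and VAA, -0.25 to 0.71 for *Lcn2* in untreated VAA, -0.23 to 0.70 for *Hp* in untreated KO and -0.50 to 0.43 for *Hp* in the VAA interaction.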
